A study of Mus musculus with 12 samples.

Results

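The 6 genes described here are Arc, Npas4, Homer1, Nptx2, Rheb and Plk2, effectors that neurons make or use when their synapses are active. They were chosen by name, all 6 occurred in the expression table among 55678 gene names, and all 6 passed the filter on low values. The tissue was the medial prefrontal cortex of mice aged 9 to 10 weeks, in 12 libraries that formed 4 groups of 3. Mice of the strain C57BL/6JmsSlc (B6) and of the strain BALB/cCrSlc (BALB/c) were either handled (control) or put through chronic restraint stress (CRS), in which each mouse sat in a restrainer for 6 h a day on 21 days in a row. All groups, controls included, went through behavioural tests before a punch of tissue was taken. The labels carry no allele or transgene, and they leave out the animals' sex and the interval between the last restraint or test and tissue collection. Libraries are named by the numbers in the labels, which do not say whether a library pooled animals, so the p-values measure the spread between these libraries.

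Strong synaptic input raises calcium in a neuron, and calcium-driven kinases act on factors such as CREB, which binds a DNA element called the cAMP response element (CRE). Transcription of immediate early genes follows quickly and fades quickly. Npas4 encodes a transcription factor induced by calcium influx, which switches on genes that shape inhibitory synapses. Arc encodes a protein that brings AMPA-type glutamate receptors in from the synaptic membrane. Homer1 encodes scaffold proteins that tie metabotropic glutamate receptors to the postsynaptic density, and its short activity-induced form, Homer1a, breaks these ties. Nptx2 encodes a secreted pentraxin that clusters AMPA receptors, Rheb a small GTPase that activates the kinase complex mTORC1, and Plk2 a kinase that weakens synapses after long periods of high activity.

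In the annotation GENCODE M21 on build GRCm38, Arc spans chr15:74669083-74672570 on the minus strand and Npas4 spans chr19:4984355-4990316 on the minus strand. Homer1 spans chr13:93299635-93405129 and Plk2 spans chr13:110395046-110400844, both on the plus strand. Nptx2 lies at chr5:144545902-144557478 on the plus strand and Rheb at chr5:24802823-24842624 on the minus strand. No exon of any of the 6 genes overlapped an exon of another gene. RefSeq promoter windows on GRCm38.p6, from 250 bases before to 50 after the start, were found for 4 of the 6 genes. In the main tests below Npas4 passed in a comparison of groups, whereas Homer1 and Plk2 passed in none. Homer1 had groups that did not overlap in some comparisons, while those of Plk2 overlapped in all. Rheb, like Plk2, passed in none and had groups that overlapped in all, and its window is not printed. The windows of Npas4, of Homer1 at its first start and of Plk2 are shown. They cover chr19:4989922-4990221 (minus strand), chr13:93303507-93303806 (plus strand) and chr13:110394794-110395093 (plus strand), each 5′ to 3′, and capitals mark the CRE core CGTCA or, on the other strand, TGACG.
Npas4: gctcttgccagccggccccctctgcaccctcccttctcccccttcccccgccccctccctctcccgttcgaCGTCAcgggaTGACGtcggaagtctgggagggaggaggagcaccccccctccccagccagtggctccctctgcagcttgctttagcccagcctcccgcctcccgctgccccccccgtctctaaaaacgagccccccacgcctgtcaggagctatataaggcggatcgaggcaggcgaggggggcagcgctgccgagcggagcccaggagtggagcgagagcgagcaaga
Homer1: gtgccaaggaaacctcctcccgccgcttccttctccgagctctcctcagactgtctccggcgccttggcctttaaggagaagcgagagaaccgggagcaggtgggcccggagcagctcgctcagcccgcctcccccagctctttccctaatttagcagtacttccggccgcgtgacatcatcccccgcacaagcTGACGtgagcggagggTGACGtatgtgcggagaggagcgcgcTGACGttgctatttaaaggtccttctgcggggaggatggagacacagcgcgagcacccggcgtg
Plk2: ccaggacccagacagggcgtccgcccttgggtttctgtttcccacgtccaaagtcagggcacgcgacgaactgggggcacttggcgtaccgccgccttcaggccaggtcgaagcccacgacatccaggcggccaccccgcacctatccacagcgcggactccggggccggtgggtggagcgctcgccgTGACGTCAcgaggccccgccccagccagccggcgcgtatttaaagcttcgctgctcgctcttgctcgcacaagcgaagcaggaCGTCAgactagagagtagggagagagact
With the start base counted as 0, Npas4 held the core at -179 and -169, and Homer1 held it at -56, -40 and -14. Plk2 held the full 8-letter element TGACGTCA at -62, which contains a core on each strand, and another core at 21. The Rheb window held a single core at -247, and the window at the second Homer1 start held none. Of 32851 promoter windows of the same length, 20.8% held the core and 1.79% held the full element on either strand. The NPAS4 motif TCGTG was found in the windows of Plk2 (-135 and -56) and Rheb (-229) and in 16.0% of all windows. These matches describe letters in the window, and no binding was measured.

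Expression was given as TPM, a length-corrected abundance scaled to a fixed total per library, so read depth cannot be known. The number of genes with at least 1 TPM ran from 14805 to 15542 over the libraries, and all 6 excitatory neuron markers were above 0 in all 12 libraries. In B6 controls the summed TPM of 7 markers of striatal medium spiny neurons, a neighbouring tissue, ranged from 189 to 2638, with the lowest value in replicate 9, whose excitatory markers summed to 4432, the highest of the 12. Under CRS the striatal markers summed to 815 to 2144 in B6 and to 116 to 159 in BALB/c, and the excitatory markers to 1916 to 2664 and to 2862 to 3282. The 6 oligodendrocyte markers summed to 2637 to 7475 in B6 under CRS and to 520 to 1397 in BALB/c. The 5 astrocyte markers summed to 485 to 534 in B6 under CRS and to 293 to 428 in BALB/c. Thus in stressed mice the strains did not overlap in any of these 4 marker sums. In controls the strains did not overlap in the astrocyte sum (358 to 538 in B6 and 326 to 354 in BALB/c) or in the sum of 6 interneuron markers (807 to 884 and 661 to 794). The 18S ribosomal RNA made up 3.97% of BALB/c CRS replicate 12 and far less of the others. Larger parts of the TPM total were mitochondrial transcripts, at 17.4% to 23.9% over the libraries, and Bc1, at 8.68% to 13.5%. In controls the mitochondrial part did not overlap between the strains, at 18.9% to 21.1% in B6 and 22.3% to 23.9% in BALB/c.

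On this per-length scale the median over the 12 libraries was highest for Plk2 at 128.7 TPM, followed by Rheb at 105.8 TPM, Homer1 at 75.6 TPM, Arc at 63.3 TPM, Nptx2 at 26.1 TPM and Npas4 at 12.4 TPM. The genes also differed in how far they varied. The highest library exceeded the lowest 5.16-fold for Arc and 3.65-fold for Npas4, against 2.34-fold for Nptx2, 1.85-fold for Homer1, 1.61-fold for Plk2 and 1.41-fold for Rheb.

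**Figure D1:**
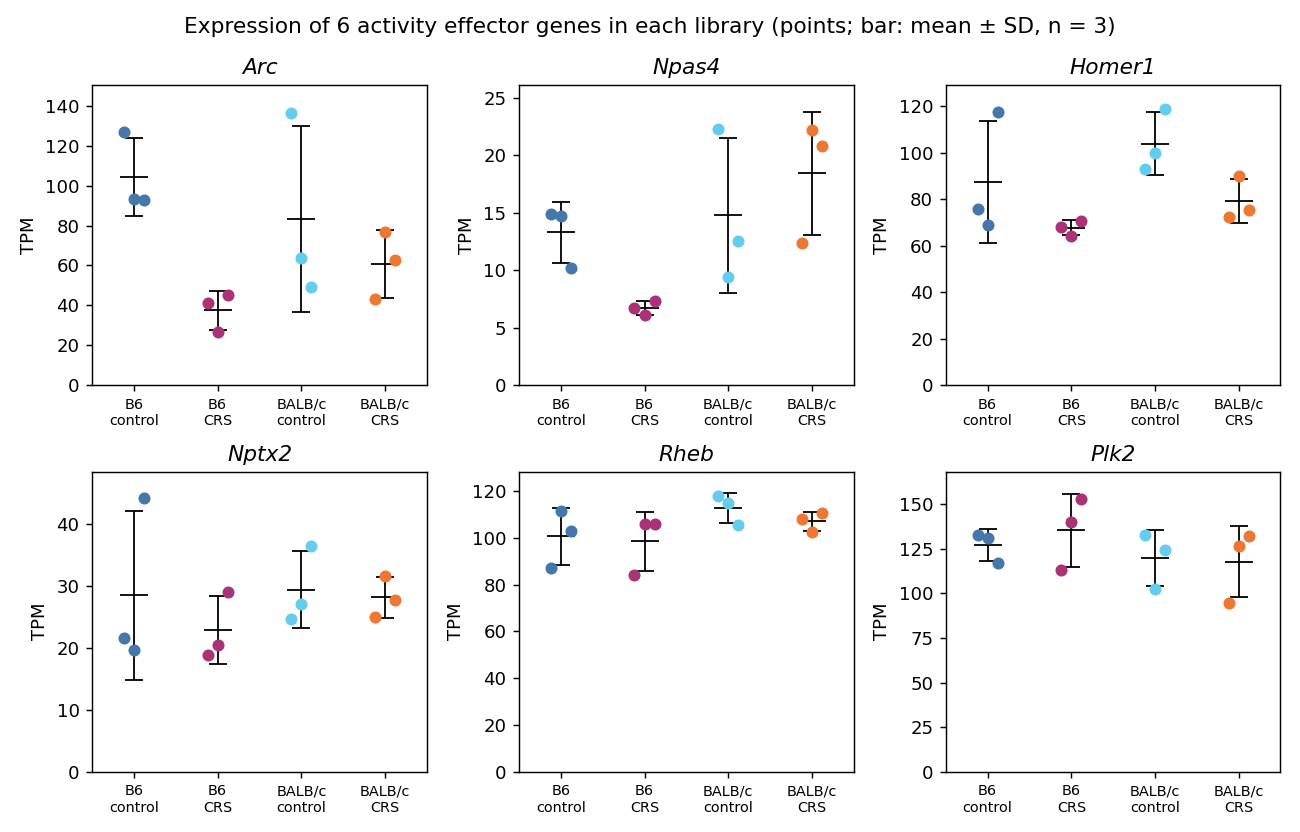
TPM of each of the 6 genes (vertical axes, from 0) in the 4 groups, with 1 point per library and bars for the mean ± SD (n = 3). The Npas4 points of the B6 CRS group, 6.11 to 7.30 TPM, lie below the points of the other 9 libraries, while Rheb and Plk2 overlap across all groups.

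Npas4 was the only one of the 6 genes that passed the test in any comparison: it was higher in BALB/c than in B6 among stressed mice. Its values were 14.9, 14.7 and 10.2 TPM in the B6 controls (replicates 2, 3 and 9) and 6.67, 6.11 and 7.30 TPM in B6 under CRS (replicates 12, 13 and 14). In BALB/c they were 22.3, 9.44 and 12.6 TPM in the controls (replicates 5, 9 and 10) and 12.3, 22.2 and 20.8 TPM under CRS (replicates 12, 13 and 15). The 3 stressed B6 libraries were lower than all other 9, and the 2 BALB/c groups overlapped. Under CRS the mean was 2.75-fold higher in BALB/c (18.4 ± 5.33 TPM) than in B6 (6.69 ± 0.594 TPM; SD, n = 3 each). The log2 difference was 1.30 (SE 0.28, 95% confidence interval 0.68 to 1.91, limma adjusted p = 0.0171), on the log2(TPM + 1) scale used for all differences here. In that comparison 1 of the 6 genes was called, and 7.7% of the 16423 genes tested were called, 2.37% as higher in BALB/c; Npas4 was also the only one of the 6 with an unadjusted p under 0.05, against 23.8% of all genes. In controls the strains did not separate, with a log2 difference of 0.077 (SE 0.28, limma adjusted p = 0.923). Row 3 of Npas4, 1 of its 3 transcript rows in the table, was 1.60, 1.46 and 1.05 TPM in stressed B6 mice. In stressed BALB/c mice it was 2.92, 9.32 and 7.03 TPM. The main row, row 2, was 5.00, 4.64 and 6.16 TPM in the former and 9.12, 12.5 and 13.8 TPM in the latter. In both rows these groups did not overlap, as in 7.76% of all rows tested. Neither row passed the test, with limma adjusted p-values over all rows of 0.105 for row 3 and 0.0916 for row 2.

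The call for Npas4 was lost, though the difference stayed at 1.38 (limma adjusted p = 0.246), when the striatal marker score entered as a covariate, and likewise with the excitatory score at 1.40 (limma adjusted p = 0.0898). It was also lost without B6 CRS replicate 12 (limma adjusted p = 0.0615) or 13 (0.0561) and without BALB/c CRS replicate 13 (0.0685) or 15 (0.0595), with log2 differences of 1.30, 1.24, 1.15 and 1.20 in that order. In B6 the log2 difference of Npas4 between CRS and control was -0.88 (SE 0.28, limma adjusted p = 1), a 1.99-fold lower mean, with no overlap between the groups. In BALB/c it was 0.34 (SE 0.28, limma adjusted p = 1), and it ran from 0.087 without control replicate 9 to 0.67 without control replicate 5, with 0.59, 0.20 and 0.24 without CRS replicates 12, 13 and 15. The test of the difference between these effects gave 1.22 (SE 0.40, 95% confidence interval 0.35 to 2.09) and did not pass over all genes (limma adjusted p = 1.00). In bulk tissue, fewer neurons that express a gene and less RNA per neuron cannot be told apart.

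Arc showed the largest fold between groups of the 6 genes, in B6, but did not pass the test. In B6 controls (replicates 2, 3 and 9) it stood at 126.8, 93.6 and 92.7 TPM, and under CRS (replicates 12, 13 and 14) at 41.1, 26.5 and 45.1 TPM. All 3 stressed libraries lay under all 3 controls. In BALB/c it stood at 136.5, 63.7 and 49.3 TPM in controls (replicates 5, 9 and 10) and at 43.0, 76.9 and 62.8 TPM under CRS (replicates 12, 13 and 15). These 2 groups overlapped, and a single control, replicate 5, was far above the rest. The mean in B6 was 2.78-fold lower under CRS, a log2 difference of -1.47 (SE 0.34, 95% confidence interval -2.20 to -0.74, limma adjusted p = 0.993). By unadjusted p it ranked as number 10 of the 16423 genes. In BALB/c the difference was -0.35 (SE 0.34, limma adjusted p = 1), and it turned to 0.077 without control replicate 5. The strain effects differed by 1.12 (SE 0.48, limma adjusted p = 1.00).

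Of the 6 genes, limma called 0 for CRS against control in B6, where 0% of all genes were called; 2 (Arc and Npas4) had an unadjusted p under 0.05, against 4.82% of all genes. In BALB/c it called 0 of the 6, with 0.00609% of all genes called, and 1 (Homer1) had an unadjusted p under 0.05, against 3.03%. Averaged over the strains it called 0 of the 6, again with 0.00609% of all genes called, and 2 (Arc and Homer1) had an unadjusted p under 0.05, against 5.17%. For the difference between the strains' stress effects it called 0 of the 6 (0% of all genes), with 2 (Arc and Npas4) at an unadjusted p under 0.05, against 2.7%. Between the strains in controls it called 0 of the 6, with 4.73% of all genes called and 0 of the 6 at an unadjusted p under 0.05, against 18.7%. Every stressed B6 library lay below every B6 control for Arc and Npas4, as for 3.7% of all genes.

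**Figure D2:**
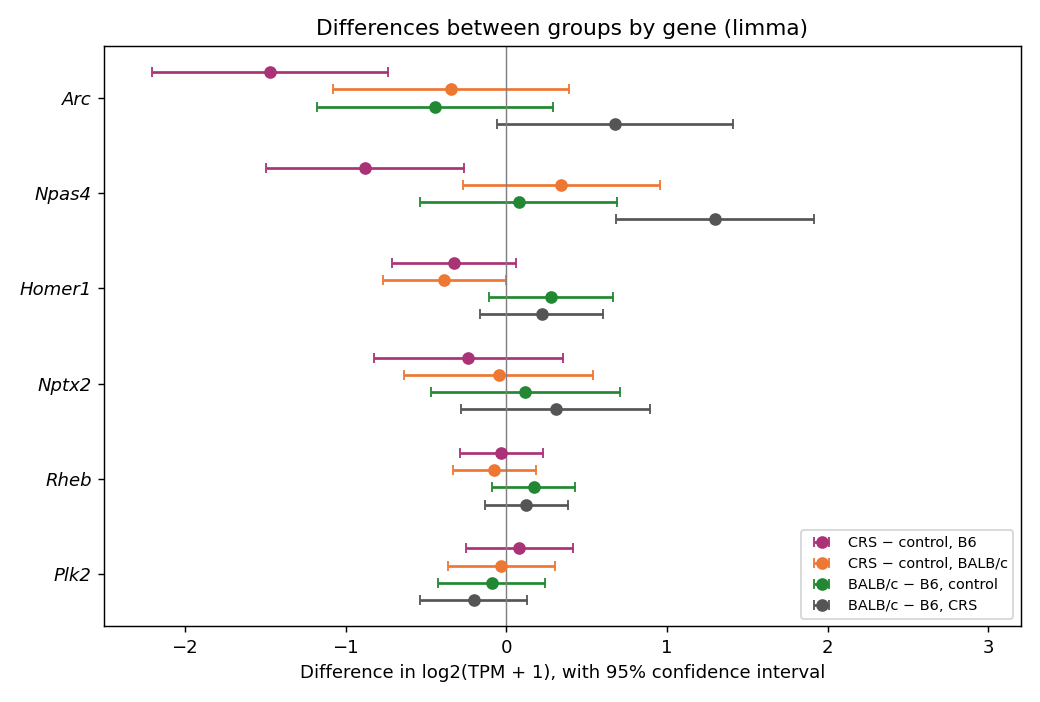
Differences in log2(TPM + 1) between groups (horizontal axis) for the 6 genes, as points with 95% confidence intervals from limma. The interval of Npas4 for BALB/c against B6 under CRS runs from 0.68 to 1.91. That of Arc for CRS against control in B6 runs from -2.20 to -0.74. All intervals of Nptx2, Rheb and Plk2 include 0, and those of Nptx2 are wider than those of Rheb and Plk2.

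Homer1 had a lower mean under CRS in both strains, 1.29-fold in B6 and 1.31-fold in BALB/c, and neither difference passed the test. The B6 difference rested largely on a single control library. B6 controls (replicates 2, 3 and 9) held 75.9, 68.7 and 117.4 TPM, and stressed B6 mice (replicates 12, 13 and 14) 68.1, 64.2 and 70.5 TPM. BALB/c controls (replicates 5, 9 and 10) held 92.8, 99.9 and 118.9 TPM, and stressed BALB/c mice (replicates 12, 13 and 15) 72.5, 89.9 and 75.3 TPM. The BALB/c groups did not overlap, which held for 2.02% of all genes in the lower direction, whereas the B6 groups overlapped and B6 control replicate 9 stood apart as high. The log2 difference was -0.33 (SE 0.18, limma adjusted p = 1) in B6, which became -0.095 without B6 control replicate 9, and -0.39 (SE 0.18, limma adjusted p = 1) in BALB/c. Averaged over strains it was -0.36 (SE 0.12, 95% confidence interval -0.63 to -0.084, limma adjusted p = 0.946).

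Among stressed mice Homer1 was higher in all 3 BALB/c libraries than in all 3 B6 libraries, as were 9.29% of all genes, with a log2 difference of 0.22 (SE 0.18, limma adjusted p = 0.496). This difference was -0.17 with the striatal score as a covariate and -0.072 with the excitatory score. In controls it was 0.28 (SE 0.18, limma adjusted p = 0.439), and it passed the test, at 0.51 (limma adjusted p = 0.0371), without B6 control replicate 9, the library with the highest excitatory and lowest striatal sum of its group.

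The table gave Homer1 in 12 rows with no transcript names, the number of Homer1 transcripts in GENCODE M21. The short form Homer1a could not be assigned to a row, so no value is given for it. Rows are numbered here in table order. A total of 5 rows were at 0 in at least 9 libraries, and 7 rows (2, 3, 4, 5, 9, 11 and 12) passed the filter and were tested with all 46000 such rows of the table. Row 5 carried the most, 31.3% of Homer1 over the 12 libraries, then row 12 with 20.2%, row 2 with 19.5%, row 4 with 18.9%, row 3 with 6.48%, row 9 with 2.04% and row 11 with 1.17%.

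The largest log2 difference averaged over strains among the 7 rows was in row 9, a minor one. It stood at 0.629, 3.41 and 1.33 TPM in B6 controls (replicates 2, 3 and 9) and at 0.414, 0.359 and 0.622 TPM under CRS (replicates 12, 13 and 14). In BALB/c it stood at 4.22, 3.68 and 3.45 TPM in controls (replicates 5, 9 and 10) and at 0.907, 0.987 and 0.625 TPM under CRS (replicates 12, 13 and 15). The stressed libraries lay under the controls in both strains, by a wide margin in BALB/c and by a narrow one in B6. This held for 0.178% of all rows tested. Row 9 was below 1 TPM in every stressed library and passed the filter through control libraries alone. Its separation, that share of rows and its unadjusted p-values for CRS against control are therefore given as description only. The log2 difference was -0.81 (SE 0.32) in B6, -1.38 (SE 0.32) in BALB/c and -1.09 (SE 0.23) averaged over strains, with limma adjusted p-values over all rows of 1.00, 0.986 and 0.552. At this level of a few TPM the split of reads between similar transcripts is an estimate of the quantifier.

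Row 3 was 6.94, 7.04 and 5.79 TPM in B6 controls and 1.29, 1.38 and 4.99 TPM in stressed B6 mice, with no overlap (as in 4.07% of all rows), while in BALB/c the groups overlapped. Row 4 ranged from 10.9 to 23.7 TPM in B6 controls and from 8.16 to 10.9 TPM in stressed B6 mice. The main row, row 5, had a mean of 26.4 TPM in B6 controls and 25.0 TPM in stressed B6 mice, and of 29.0 and 25.4 TPM in BALB/c. Its share of Homer1 was 30.4% ± 0.704 and 36.9% ± 1.83 in B6 controls and stressed B6 mice, with no overlap, and 28.0% ± 1.57 and 31.9% ± 4.42 in BALB/c (SD, n = 3 each), where the groups overlapped. All 7 rows had log2 differences below 0 in B6 and in BALB/c, against 50.6% and 43.2% of all rows. This count includes row 9, which passed the filter through control libraries alone. Row 11 reached the filter level in a single stressed library, BALB/c CRS replicate 13, at 1.60 TPM. The filter favoured a lower value under CRS for both rows, so their direction and the counts below that include row 9 are description only. For CRS against control limma called 0 of the 7 rows in B6 (0.0109% of all rows), in BALB/c (0%) and averaged over strains (0.00435%). At an unadjusted p under 0.05 there were 3 rows (3, 4 and 9) in B6, against 4.87% of all rows, 1 (row 9) in BALB/c, against 3.94%, and 3 (rows 3, 4 and 9) averaged, against 4.84%. It also called 0 for the difference of the effects (0% of all rows; 0 unadjusted, against 3.97%), between strains in controls (1.69%; 1 unadjusted, row 9, against 12.3%) and under CRS (2.08%; 1 unadjusted, row 4, against 15%).

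**Figure D3:**
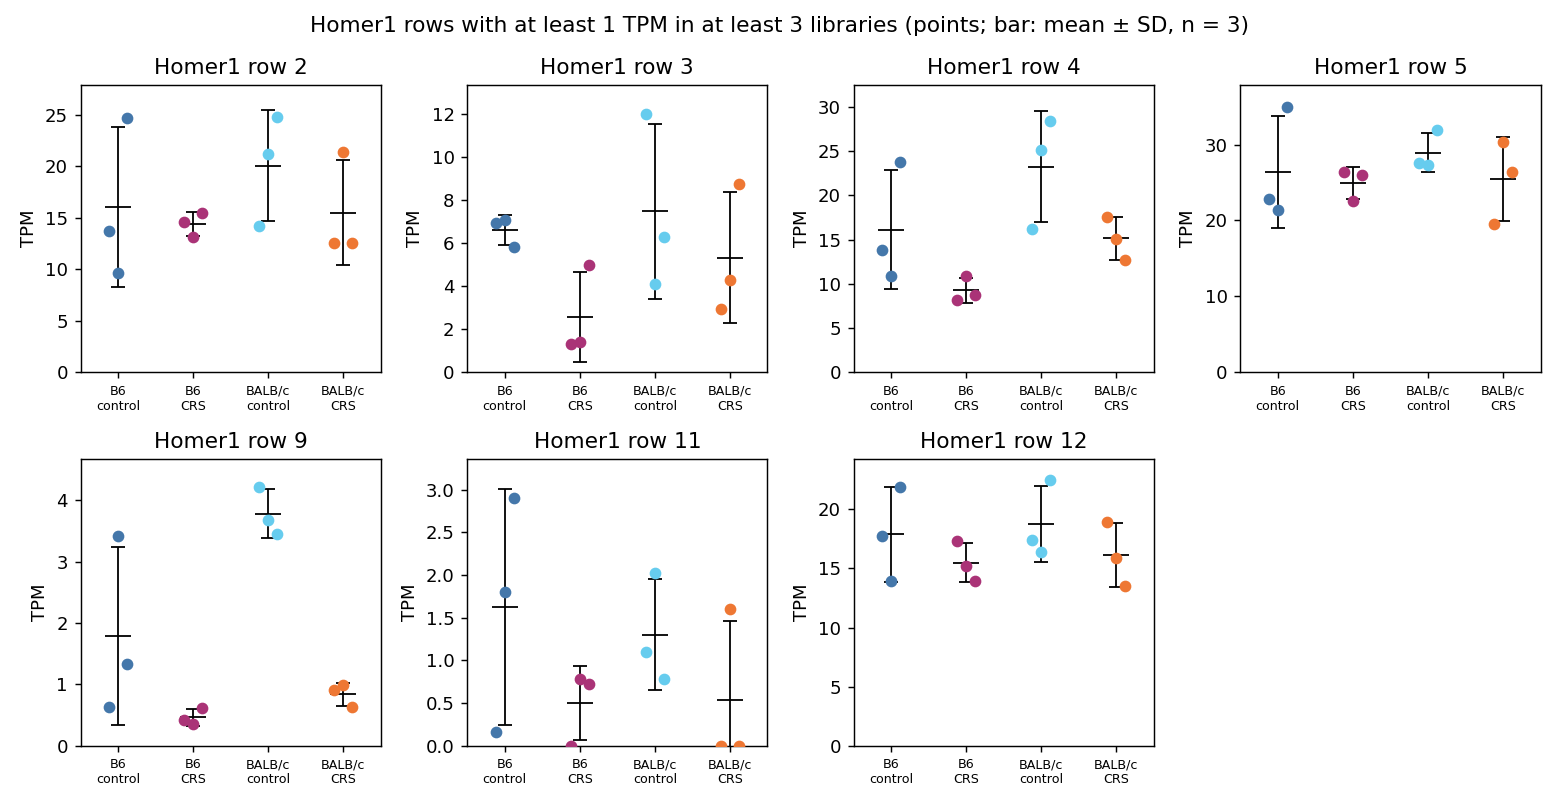
TPM of the 7 Homer1 rows that passed the filter (vertical axes, from 0) in the 4 groups, with 1 point per library and bars for the mean ± SD (n = 3). Row 9 lies between 3.45 and 4.22 TPM in BALB/c controls and below 1 TPM in all 6 stressed libraries, while rows 2, 5 and 12 overlap between stressed and control libraries.

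Nptx2 had no difference that passed the test. B6 controls (replicates 2, 3 and 9) held 21.6, 19.6 and 44.2 TPM, and stressed B6 mice (replicates 12, 13 and 14) 18.9, 20.5 and 29.1 TPM. BALB/c controls (replicates 5, 9 and 10) held 24.7, 27.1 and 36.4 TPM, and stressed BALB/c mice (replicates 12, 13 and 15) 25.0, 31.7 and 27.8 TPM. All groups overlapped, and B6 control replicate 9 was the highest library. The log2 differences between CRS and control were -0.24 (SE 0.27, 95% confidence interval -0.82 to 0.35) in B6 and -0.047 (SE 0.27, -0.64 to 0.54) in BALB/c, both with a limma adjusted p of 1. The B6 value became 0.12 without control replicate 9.

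Rheb was the steadiest of the 6 genes. Its mean was 100.6 ± 12.3 TPM in B6 controls, 98.5 ± 12.6 TPM in stressed B6 mice, 112.8 ± 6.39 TPM in BALB/c controls and 107.0 ± 4.26 TPM in stressed BALB/c mice (SD, n = 3 each). The lowest library held 83.9 TPM and the highest 117.9 TPM, and neighbouring groups overlapped. The 95% confidence interval of the CRS difference on the log2 scale ran from -0.29 to 0.23 in B6 and from -0.33 to 0.18 in BALB/c.

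Plk2 was the most abundant of the 6 genes, at 127.0 ± 8.79 TPM in B6 controls, 135.2 ± 20.4 TPM in stressed B6 mice, 119.7 ± 15.7 TPM in BALB/c controls and 117.7 ± 20.0 TPM in stressed BALB/c mice (SD, n = 3 each). The groups overlapped in every comparison. The 95% confidence interval of the CRS difference ran from -0.25 to 0.41 in B6 and from -0.36 to 0.30 in BALB/c. Between the strains it was -0.091 (SE 0.15) in controls, which became 0.034 with median-of-ratios scaling, and -0.20 (SE 0.15) under CRS; the median of all genes between the strains in controls was -0.10 as deposited and 0.0092 with that scaling.

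Among all pairs of the 6 genes, Homer1 with Nptx2 and Arc with Npas4 had the highest correlations. Across the 12 libraries, which share groups and neuronal content, log2 values of Arc and Npas4 correlated with a Pearson r of 0.70 (Spearman rho 0.75), and with an r of 0.81 after the group means were removed. Homer1 and Nptx2 correlated with an r of 0.82 (rho 0.73), and 0.93 after the group means were removed. Npas4 and Plk2 gave an r of 0.054, and 0.77 after the group means were removed. Arc and Homer1 gave an r of 0.36, which was -0.15 after the group means were removed. The excitatory neuron score correlated with Homer1 at 0.73, Nptx2 at 0.75 and Rheb at 0.72. It correlated at 0.49 with Npas4, 0.27 with Arc and -0.23 with Plk2. Other marker scores also gave large coefficients. Plk2 correlated at 0.77 with the microglial score and 0.65 with the astrocyte score. Homer1 correlated at -0.68 with the astrocyte score. The striatal score correlated with Rheb at -0.66, Nptx2 at -0.66, Homer1 at -0.62, Npas4 at -0.59, Arc at -0.22 and Plk2 at 0.30. These coefficients describe the 12 libraries and were not tested.

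**Figure D4:**
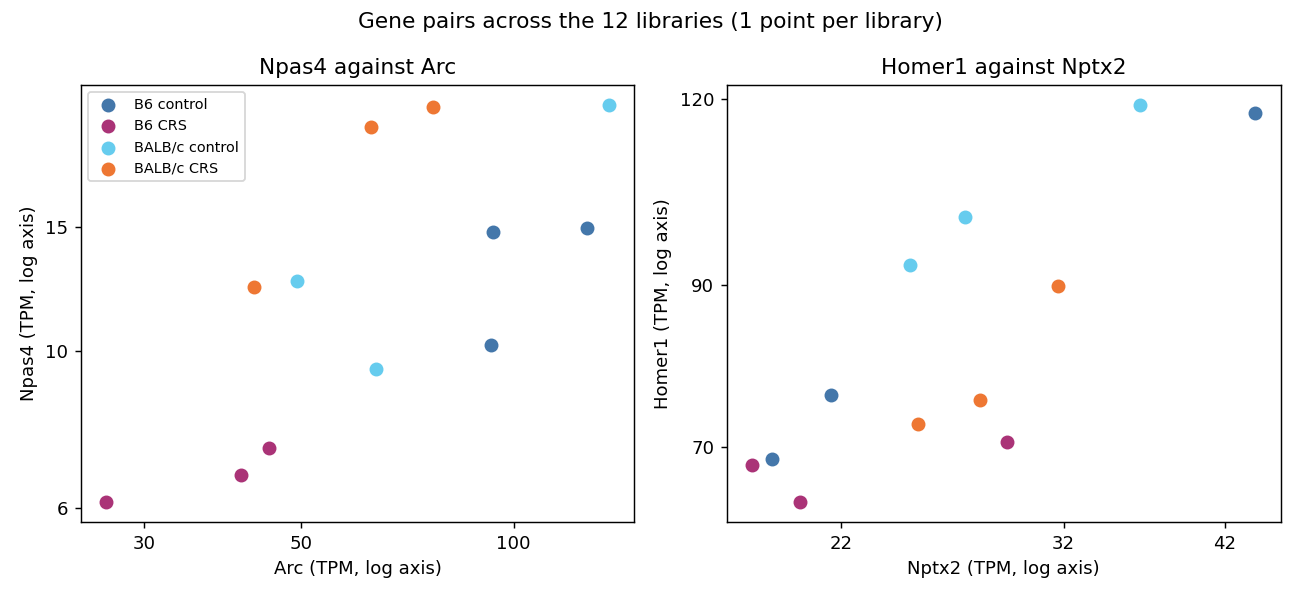
TPM of Npas4 against Arc and of Homer1 against Nptx2, both on log axes, with 1 point per library coloured by group. The 3 stressed B6 libraries sit at the low end of both Arc and Npas4, and B6 control replicate 9 sits at the high end of both Homer1 and Nptx2, at 117.4 and 44.2 TPM.

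Of all other tested genes with a mean of at least 5 TPM, those most like Arc over the 12 libraries were Nr4a1 (r = 0.89) and Junb (r = 0.86), both transcription factors of the immediate early class, and Dusp1 (r = 0.87), a phosphatase of MAP kinases. Those most like Npas4 were Btg2 (r = 0.93), an early-response gene, Dusp1 (r = 0.91) and Esyt2 (r = 0.90), a membrane tether. For Homer1 they were Igsf9b (r = 0.94), Ier5 (r = 0.94) and Atf6 (r = 0.90). For Nptx2 they included Cdyl2 (r = 0.89) and Tfr2 (r = 0.89). Rheb was most like Ift81 (r = 0.90), Rab33a (r = 0.86) and Slc17a5 (r = 0.85), with Spearman rho of only 0.66, 0.31 and 0.52. Plk2 was most like Lonp1 (r = 0.94), Scap (r = 0.94) and Flcn (r = 0.92).

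Related genes were grouped by role into 8 lists with 78 different genes, of which 76 passed the filter (Amigo3 and Mmp9 did not). The activity-induced transcription factors, the class to which Npas4 belongs, lay below 0 for CRS against control in B6 in 14 of 14 genes, with a median log2 difference of -0.83, against 49.7% and a median of 0 over all genes, and limma called 0 of them, while 9 had an unadjusted p under 0.05. In BALB/c 13 of 14 lay below 0 with a median of -0.25, against 37.4% and a median of 0.045 over all genes; 0 were called and 1 had an unadjusted p under 0.05. Egr1, a zinc finger factor of this list, had a log2 difference of -0.96 (SE 0.15, limma adjusted p = 0.224) in B6 and -0.62 (SE 0.15, limma adjusted p = 1) in BALB/c. Averaged over strains it was -0.79 (SE 0.10), just outside the threshold with a limma adjusted p of 0.0509. Fos, a subunit of AP-1, had a log2 difference of -1.68 (SE 0.43, limma adjusted p = 1) in B6. Among 16 other activity-induced effectors tested, 10 lay below 0 in B6 (median -0.23), against 49.7% of all genes. In BALB/c 10 lay below 0 (median -0.041), against 37.4%. In either strain 0 were called, with 3 in B6 and 0 in BALB/c at an unadjusted p under 0.05. For this count and those of the transcription factors, the shares over all genes were 4.82% in B6 and 3.03% in BALB/c.

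The lists of partners had medians closer to 0. Of 10 Homer relatives and binding partners 6 lay below 0 in B6 and 1 in BALB/c, with medians of -0.021 and 0.081. Over all genes 49.7% and 37.4% lay below 0. Of 6 pentraxins and AMPA receptor subunits 5 and 4 lay below 0, with medians of -0.15 and -0.025; Nptx1, the closest relative of Nptx2 in this list, had -0.51 (SE 0.23, limma adjusted p = 1) in B6. The 12 genes of the Rheb and mTORC1 list had medians of 0.014 and 0.071, the 9 polo-like kinases and Plk2 substrates 0.044 and 0.098, the 4 Arc partners in endocytosis -0.085 and 0.0081, and the 6 Npas4 partners and relatives -0.15 and 0.055. In these 6 lists limma called 0 genes for CRS against control in either strain. Over all genes it called 0% in B6 and 0.00609% in BALB/c. In B6, 2 of the 6 Npas4 partners and relatives (Npas1 and Npas2) had an unadjusted p under 0.05. So did 1 of the 6 pentraxins and AMPA receptor subunits (Nptx1) and 1 of the 9 polo-like kinases and Plk2 substrates (Plk3). The other lists had 0, and the share over all genes was 4.82%. In BALB/c 0 genes of these lists had such a p, against 3.03%.

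Between the strains under CRS, 6 of the 76 related genes were called, 3 in each direction, a share close to the 7.7% called over all genes. Npas1, a relative of Npas4 that marks certain inhibitory neurons, was higher in BALB/c by 1.34 (SE 0.17, limma adjusted p = 0.000516), and Ptgs2, the inducible cyclooxygenase, by 1.40 (SE 0.29, limma adjusted p = 0.0140). Eif4ebp1, a translational repressor controlled by mTORC1, was higher by 0.72 (SE 0.19, limma adjusted p = 0.0409). Scg2, a neuropeptide precursor, was lower in BALB/c with -0.66 (SE 0.15, limma adjusted p = 0.0223), as were Rps6, a ribosomal protein phosphorylated downstream of mTORC1, with -0.51 (SE 0.11, limma adjusted p = 0.0165) and Plk1, the mitotic polo-like kinase, with -0.79 (SE 0.22, limma adjusted p = 0.0462). Of the 14 activity-induced transcription factors 13 lay above 0 in this comparison, as Npas4 did, with a median of 0.34, against a median of -0.059 and 58.7% below 0 over all genes, and limma called 0 of them, against 7.7% of all genes, with 3 of the 14 at an unadjusted p under 0.05, against 23.8%. Ier2 came nearest, with 0.80 (SE 0.23, limma adjusted p = 0.0577). In controls, where 4.73% of all genes were called, the single called gene of the 76 was Gadd45b, a stress-response gene, lower in BALB/c with -0.65 (SE 0.15, limma adjusted p = 0.0335). The striatal, oligodendrocyte, astrocyte and excitatory marker sums also separated the strains under CRS, and their part in these differences was not tested gene by gene.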

How the data were processed

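RNA from 12 libraries was measured, and the values were TPM as the authors deposited them, in 1 table with a column per library; per the submitters' processing notes, cutadapt 2.9, Salmon and build GRCm38 were used. The annotation, the counting options and whether strand was used are not given in the sources used here, and the unit TPM was read from columns that all summed to the same total, which keep no read depth. TPM of rows with the same gene name were summed, and the 16423 genes that reached 1 TPM in 3 or more libraries were tested on log2(TPM + 1) in limma 3.58.1 under R 4.3.3, with 4 group means over all 12 libraries (8 residual degrees of freedom), an intensity trend and Benjamini-Hochberg adjustment at 0.05 over all genes. This scale understates changes of low genes. The 46000 rows that passed were fitted likewise. Confidence intervals are per gene, at 95% and unadjusted. The script was tested on simulated data.

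The 6 genes and all lists were chosen with earlier results of these data known. Within a list, the 2 genes of lowest p in a comparison could be named; of these, the ones printed were chosen after their values were seen, as were the Homer1 rows. Similar genes are the 3 with the highest r to each gene, leaving out predicted genes and pseudogenes; 1 of them is not reported here. A marker score is the mean log2(TPM + 1) of a list. Alternatives were a pseudocount of 0.1, other filters and scalings, the 6 libraries of a comparison alone, a replicate block, marker scores as covariates and leaving out each library.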

Additional observations from a re-analysis of the deposited data

How the results depend on the processing

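Of 744 alternative values for the 36 differences of the 6 genes, 678 kept their direction and side of the threshold, 6 lost the call, 1 gained it and 59 changed sign, 32 of these on leaving out a library. The call of Npas4 between strains under CRS, and with it the count of called genes, went from 1 to 0 with the striatal score (1.38) or the excitatory score (1.40), the latter chosen after seeing the data, and ranged from 0 to 1 on leaving out a library (1.15 to 1.55). In controls that count ranged from 0 to 1 (Homer1, 1 without B6 control replicate 9), and the count of called Homer1 rows from 0 to 1 (row 9, 1 without B6 control replicate 3). The causes were not tested.

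With the excitatory score, CRS against control became 0.096 for Nptx2 and 0.068 for Rheb in B6, 0.027 for Nptx2 in BALB/c, and 0.061 for Nptx2 and 0.0076 for Rheb averaged over strains; the difference of effects became -0.068 for Nptx2, the strain difference in controls -0.16 for Nptx2, and under CRS -0.23 for Nptx2, -0.072 for Homer1 and -0.036 for Rheb. With the striatal score, CRS against control in B6 became 0.054 for Nptx2 and 0.051 for Rheb, the difference of effects -0.19 for Nptx2, the strain difference in controls -0.25 for Nptx2, and under CRS -0.44 for Nptx2, -0.17 for Homer1 and -0.087 for Rheb. For Plk2 the strain difference in controls became 0.034 with median-of-ratios scaling and 0.0024 without mitochondrial, Bc1, 18S and 7S rows, and the averaged CRS difference -0.0052 with the former. With a replicate block CRS against control became 0.092 for Nptx2 and 0.068 for Rheb in B6, 0.28 for Nptx2, 0.023 for Rheb and 0.070 for Plk2 in BALB/c, and 0.19 for Nptx2 and 0.045 for Rheb averaged. Number 9 occurred only in controls, and numbers 12 and 13 only under CRS. The averaged CRS difference in that fit therefore rested on replicates 14 (B6) and 15 (BALB/c) against the controls other than number 9. The block left the estimated strain differences as they were. Numbers 9, 12 and 13 are shared by different animals of the strains, whose deviations correlated at -0.24, -0.029 and -0.036, so they do not pair the libraries; the block changed no call among the 6 genes and took the genes called between strains under CRS from 1264 to 750.

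Leaving out a library changed the sign of small differences. For CRS against control in B6 these ran from -0.45 to 0.12 for Nptx2, -0.13 to 0.080 for Rheb and -0.013 to 0.20 for Plk2, and in BALB/c from -0.65 to 0.077 for Arc, -0.16 to 0.11 for Nptx2 and -0.14 to 0.12 for Plk2. Averaged they ran from -0.25 to 0.036 for Nptx2, -0.10 to 0.0020 for Rheb and -0.029 to 0.099 for Plk2. The difference of effects ran from -0.29 to 0.091 for Homer1, -0.17 to 0.40 for Nptx2, -0.16 to 0.053 for Rheb and -0.23 to 0.036 for Plk2. The strain difference in controls ran from -0.25 to 0.33 for Npas4, -0.092 to 0.48 for Nptx2 and -0.17 to 0.018 for Plk2. Over all genes, calls between strains under CRS fell to 243 with the striatal score, 396 with the excitatory score and 702 with a mean of at least 5 TPM, and ran from 539 to 1852 without a library; in controls, 777 calls became 437 with that mean, 517 with the striatal score and 443 with the 6 libraries alone, and ran from 428 to 1389 without a library. CRS against control called 0 to 7 genes in B6 and 0 to 2 in BALB/c over the settings, and the averaged and interaction tests 0 to 2 each. With 3 libraries a group and no read depth in TPM, precision rests on the spread between libraries.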

Other observations

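The other genes with several rows kept their makeup across groups to different degrees. Both Arc rows followed the sum: row 1 held 81.0, 66.4 and 59.4 TPM in B6 controls (replicates 2, 3 and 9) and 29.1, 18.1 and 26.2 TPM under CRS (replicates 12, 13 and 14), and row 2 held 45.8, 27.1 and 33.3 TPM and 12.0, 8.35 and 18.8 TPM. The share of row 1 in Arc was 66.3% ± 4.06 in B6 controls and 65.8% ± 6.67 in stressed B6 mice (SD, n = 3 each). The main Npas4 row, row 2, made up 76.7% ± 9.11 of Npas4 in B6 controls, 78.5% ± 5.20 in stressed B6 mice, 74.5% ± 9.66 in BALB/c controls and 65.5% ± 8.77 in stressed BALB/c mice (SD, n = 3 each). This share did not overlap between stressed B6 mice (74.9% to 84.4%) and stressed BALB/c mice (56.4% to 73.9%), while the other groups overlapped. The main row of Plk2 made up 91.9% to 93.6% of Plk2 in the group means. Row 2 of Rheb was at 0 in 7 of the 12 libraries and above 0 in at least 1 library of every group. It held 16.1 TPM in B6 CRS replicate 13, and 15.7 and 3.38 TPM in B6 control replicates 3 and 2. In BALB/c it held 14.3 TPM in CRS replicate 12 and 9.15 TPM in control replicate 5.

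Under CRS the 6 interneuron markers overlapped between the strains, with sums of 797 to 1123 TPM in B6 and 679 to 842 TPM in BALB/c. In the order B6 control, B6 CRS, BALB/c control and BALB/c CRS, the 5 microglial markers summed to 208 to 242, 192 to 228, 199.6 to 211 and 183 to 199 TPM, and the 4 endothelial markers to 78.6 to 95.8, 81.0 to 85.5, 81.4 to 86.0 and 75.8 to 82.6 TPM. The 4 choroid plexus markers summed to at most 57.3 TPM and the 4 blood markers to at most 110.5 TPM, both in B6 controls.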
